A study of Homo sapiens with 6 samples.

Results

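The 9 genes described here are IFITM1, IFITM2 and IFITM3, the neighbouring pair SAMD9 and SAMD9L, the transcription factor genes STAT2, IRF1 and IRF9, and the DNA sensor gene IFI16. They are 9 of the 11363 genes in the authors' table and all 9 were found there by identifier. They were chosen by name as interferon-stimulated genes after the change of IFITM1 in these same libraries was known, and the question put to them was whether IFITM1 moves alone. Their differences between the groups are therefore given as a description, without a test. The samples are 6 RNA libraries of NOMO-1, a human acute myeloid leukaemia cell line of monocytic type that carries a KMT2A-MLLT3 fusion. The groups are cells of genotype WT, which the submitters call parental (3 libraries), and cells of genotype MSLN-KO, in which the gene of the surface protein mesothelin was knocked out (3 libraries). Neither group was given interferon or another agent according to the labels. The labels do not say whether the knockout cells are 1 clone or a pool, or whether replicates are separate cultures, so each p-value below reflects only how these libraries vary, which may be technical variation.

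Interferons are secreted proteins that bind surface receptors and activate the kinases JAK1, JAK2 and TYK2, which phosphorylate STAT proteins. Phosphorylated STAT2 takes part with IRF9 in a complex called ISGF3, which binds the interferon-stimulated response element (ISRE), while other STAT complexes bind the gamma-activated site (GAS). IRF1 is itself induced by interferon and binds elements close to the ISRE. The IFITM proteins are small membrane proteins that hinder the fusion of enveloped viruses with the cell. SAMD9 and SAMD9L are growth-restraining antiviral factors whose gain-of-function variants cause a bone marrow failure syndrome with myeloid leukaemia risk. IFI16 binds DNA in the nucleus and cytosol.

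Depth was between 23665824 and 30804446 reads in the listed genes per library. MSLN itself, the targeted gene, lay at 153.2, 122.9 and 105.9 CPM (reads scaled to a library total of 1000000) in the WT libraries and at 45.7, 46.9 and 45.3 CPM in the MSLN-KO libraries. This is a log2 change of -1.43 (SE 0.10, limma adjusted p = 1.5e-07), in the direction of the labels. The groups also differed on chromosome 9, away from MSLN on chromosome 16. FOCAD, HACD4, KLHL9 and MTAP, 4 listed genes around the type I interferon gene cluster of chromosome 9, had 0 reads in all 3 WT libraries and between 11.4 and 18.5 CPM in the MSLN-KO libraries, 5261 reads in all. For each gene, by counting error alone, an observed count of 0 still allows an expected count of up to about 3 reads over the WT group. MLLT3, the next listed gene on their side towards the chromosome end, had 522 reads in WT and 568 in MSLN-KO. Reads of the KMT2A-MLLT3 fusion transcript can count to MLLT3 as well, and their part was not tested. In all, 21 genes of the table had 0 reads in every WT library, and 0 genes had 0 reads in every MSLN-KO library. It was not tested whether the MSLN-KO cells descend from the cells labelled WT. Effects of the knockout and a difference in origin between the cultures cannot be told apart in this design, and that holds for every value below. Of 10 markers of monocytic leukaemia cells all 10 were listed, and their summed level ran from 15848 to 16428 CPM in WT and from 7273 to 7682 CPM in MSLN-KO. Most of that sum was LYZ, the lysozyme gene, whose mean was 14540 CPM in WT and in MSLN-KO 6081 CPM. The other 9 summed to between 1526 and 1542 CPM in WT and between 1232 and 1411 CPM in MSLN-KO. LYZ, CD14, CD4, CSF1R, CD68 and ITGAM fell, CD33, CEBPA and FCGR1A rose, and SPI1 was not called. Of 34 markers of lymphoid, erythroid, megakaryocytic, epithelial, mesothelial, stromal and endothelial cells 6 were listed: NKG7, CD79B, EPOR, ITGA2B, KRT18 and PECAM1. CD79B fell 3.67-fold, PECAM1 1.35-fold and NKG7 1.21-fold, ITGA2B rose 4.08-fold and EPOR 1.254-fold, and KRT18 was not called. CD79B is listed through WT and ITGA2B through MSLN-KO alone. The part of these markers in the results below was not tested. Defining markers such as CD3D, HBB, EPCAM and COL1A1 were not among the listed genes. In bulk RNA, fewer cells of a type and less RNA per cell cannot be told apart.

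The promoter sequences show which of the genes carry the letters that interferon-activated factors bind. A RefSeq promoter window (GRCh38.p14, from 250 bases before to 50 after the transcript start) was at hand for 8 of the 9 genes, all but IFITM2. Each was searched on both strands for the ISRE core, GAAA followed by any 2 bases and GAAA again, and for the GAS core TTCNNNGAA. The stretches with a match are printed 5′ to 3′ on the gene's strand, with matches in capitals.
IFITM1, chr11:313975-314043, plus strand: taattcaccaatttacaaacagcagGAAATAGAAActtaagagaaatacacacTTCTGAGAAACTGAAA
IFITM3, chr11:320861-320937, minus strand: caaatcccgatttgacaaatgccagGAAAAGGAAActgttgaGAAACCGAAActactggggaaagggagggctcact
SAMD9, chr7:93118081-93118140, minus strand: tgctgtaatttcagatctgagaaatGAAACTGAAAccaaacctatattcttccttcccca
IRF1, chr5:132490864-132490922, minus strand: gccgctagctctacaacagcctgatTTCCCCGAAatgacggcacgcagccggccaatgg
IRF9, chr14:24161177-24161235, plus strand: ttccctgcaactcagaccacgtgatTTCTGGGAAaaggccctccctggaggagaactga
IFITM1 and IFITM3 each held 2 ISRE cores between 52 bases before and 4 after the start, and SAMD9 held 1. In IFITM1 the second ISRE core overlaps a GAS core, so that the capitals at the end of its line are both. IRF1 and IRF9 held a GAS core and no ISRE core. In the windows of SAMD9L, STAT2 and IFI16 neither string was found, which says nothing of other forms of these elements. Of all 35116 RefSeq windows, 3.57% held an ISRE core, 0.259% held 2 or more, and 7.66% held a GAS core.

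IFITM1 (ENSG00000185885.17, chromosome 11, 313506 to 315272, plus strand) was the lowest of the 9 genes in WT and differed most between the groups. Its level was 3.67, 3.25 and 3.75 CPM in WT replicates 1 to 3 and 26.7, 24.9 and 20.95 CPM in MSLN-KO replicates 1 to 3. The groups were far apart, with means of 3.557 ± 0.268 and 24.19 ± 2.95 CPM (SD, n = 3 each), a ratio of 6.80. On reads, this is 90, 84 and 89 against 688, 661 and 667. The log2 change, on the log2(CPM + 1) scale that understates the change of low genes, was 2.46 (SE 0.10), and 0.581% of all genes had a larger one. The table lists only genes that reached at least 4.90 CPM in 3 libraries. IFITM1 lay below that level in every WT library, so it is listed through the MSLN-KO libraries alone, and 204 genes of the table share this. The other 8 genes reached that level in all 6 libraries.

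IFITM2 (ENSG00000185201.18, chromosome 11, 307631 to 315272, plus strand), the next gene upstream, differed in the same direction and by less. Its level was 33.7, 29.8 and 33.1 CPM in WT and 68.3, 68.3 and 53.1 CPM in MSLN-KO. All MSLN-KO libraries stood above all WT libraries, and the means of 32.23 ± 2.1 and 63.23 ± 8.76 CPM have a ratio of 1.96 (log2 change 0.94, SE 0.09). IFITM3 (ENSG00000142089.17, chromosome 11, 319669 to 327537, minus strand), which blocks virus entry from late endosomes, did not share this. It lay at 8.57, 8.63 and 8.64 CPM in WT and at 9.24, 9.15 and 8.01 CPM in MSLN-KO. These groups overlap, and their log2 change was 0.03 (SE 0.09). So by these values IFITM1 was not alone among the family, and the family did not move as a whole. IFITM1 and IFITM2 share exonic bases, as described below, and the part of shared reads in this was not tested. MSLN-KO replicate 3 was the lowest library of its group for each of these 3 genes.

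**Figure D1:**
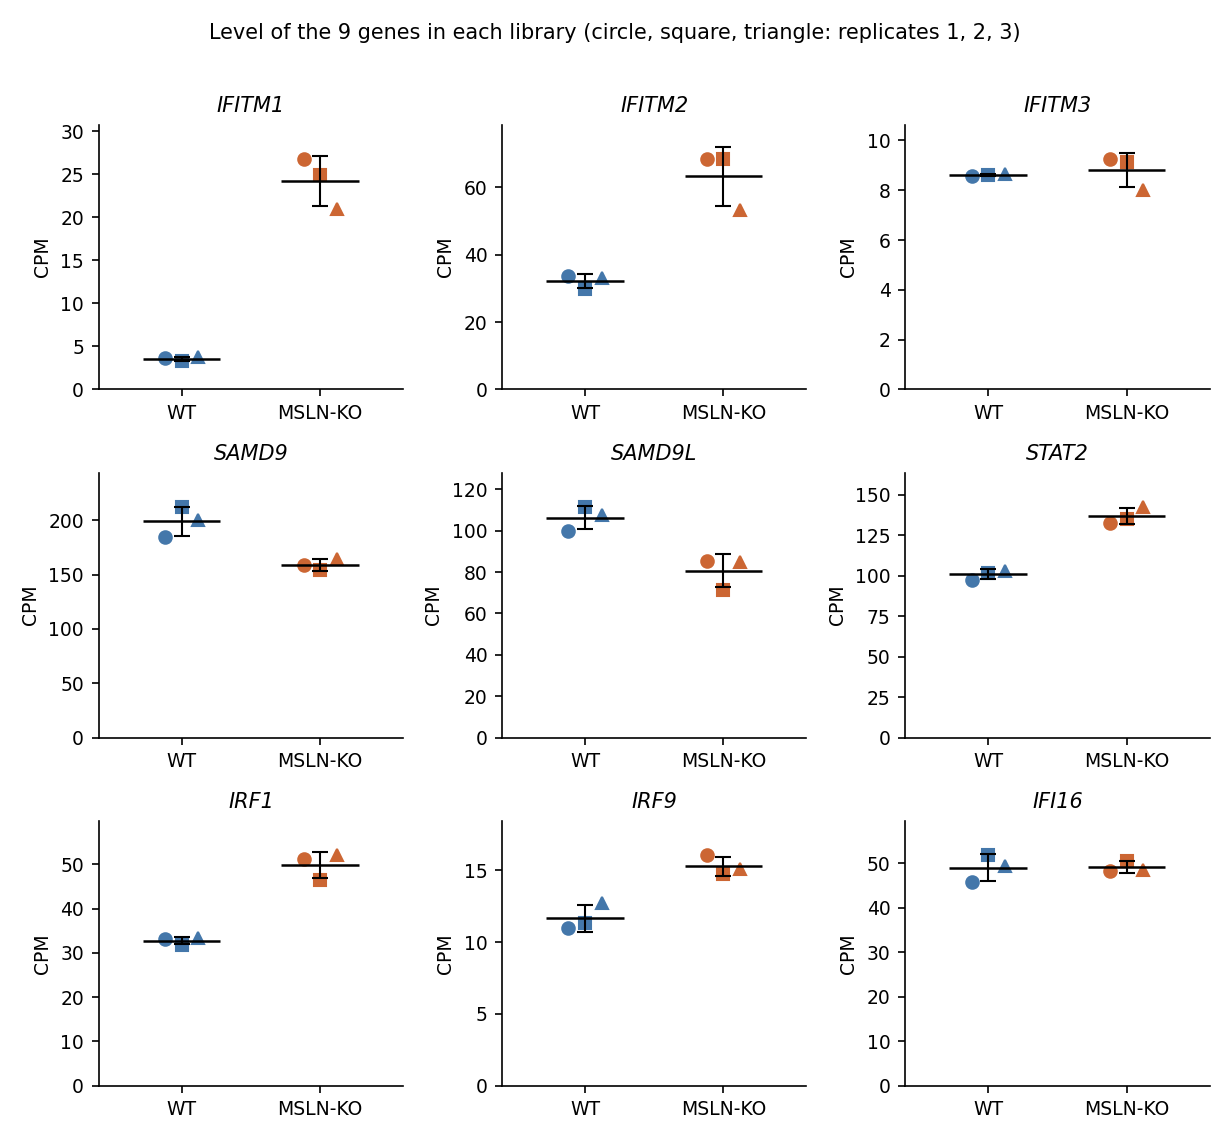
Level of each of the 9 genes in CPM (linear axis from 0, a separate scale for each gene) in the WT libraries (blue) and the MSLN-KO libraries (orange). Symbols are replicates, the line is the group mean and the bar its SD (n = 3). The IFITM1 groups lie far apart (3.25 to 3.75 against 20.95 to 26.7 CPM), whereas IFITM3 and IFI16 overlap.

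Because the 2 rises shared a direction, the levels were set against each other within each library. IFITM1 stood at 10.9%, 10.9% and 11.3% of IFITM2 in the WT libraries and at 39.1%, 36.5% and 39.4% in the MSLN-KO libraries. The MSLN-KO libraries were close to each other in this ratio, replicate 3 included, although it was low in both genes. Of the summed CPM of the 3 IFITM genes, IFITM1 made up 8.01% ± 0.22 in WT and 25.2% ± 0.72 in MSLN-KO (SD, n = 3 each). The sum itself was 44.4 ± 2.33 and 96.2 ± 12.3 CPM. On the log2 scale the change of IFITM1 exceeded that of IFITM2 by 1.52, that of IFITM3 by 2.44, and the median change of the other 8 genes by 2.27.

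The 3 IFITM genes are close copies and their values depend on how reads were assigned. In GENCODE release 29, a transcript of IFITM2 reaches over IFITM1 and uses its last exon, chr11:314922-315272, so 351 of the 1080 exonic bases of IFITM1 (32.5%) belong to both genes. How the authors' counting treated reads in shared exons or reads with several matches was not stated in the labels or notes. Between the means, IFITM2 rose by 31.0 CPM and IFITM1 by 20.6 CPM, and the part of shared reads in either was not tested. Leaving that transcript aside, 4.69% of the 50-base windows of IFITM1 transcripts also occurred in IFITM2, 9.18% in IFITM3 and 0.937% in a gene outside these 3. At 100 bases these shares were 0%, 4.05% and 0%.

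The surroundings of IFITM1 on chromosome 11 were mixed. Of 11 other listed genes within 250 kb (IFITM2 and IFITM3 not counted), 4 rose and 1 fell, with a median log2 change of 0.20. The 635 listed genes of chromosome 11 had a median of 0.01, with 21.3% called higher and 19.2% lower. PGGHG, a glucosidase gene 17.4 kb upstream of IFITM1, rose from 8.236 ± 1.36 to 17.74 ± 2.95 CPM (log2 change 1.02, limma adjusted p = 3.5e-05). PTDSS2, which makes phosphatidylserine, rose 1.74-fold (limma adjusted p = 0.00012) and RNH1, a ribonuclease inhibitor gene, 1.46-fold (limma adjusted p = 0.00021). BET1L rose 1.18-fold with overlapping groups, a call lost under 5 of 12 alternatives: without the variance trend, and without WT replicate 2 or 3 or MSLN-KO replicate 1 or 2 (adjusted p between 0.067 and 0.18). HRAS fell 1.29-fold, a call lost without WT replicate 3 (adjusted p = 0.086) or MSLN-KO replicate 3 (0.053), over a range from 0.0062 to 0.086. RIC8A, SIRT3, PSMD13, SIGIRR, ANO9 and RASSF7 were not called, with log2 changes between -0.10 and 0.24. Of these, RIC8A was called lower without WT replicate 2 (log2 change -0.19, adjusted p = 0.021). SIGIRR was called higher without MSLN-KO replicate 3 (0.27, adjusted p = 0.029) or with rescaling to column totals (adjusted p = 0.044), and ANO9 without MSLN-KO replicate 2 (0.32, adjusted p = 0.047). Their adjusted p ranged up to 0.74, 0.36 and 0.30 over all alternatives.

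**Figure D2:**
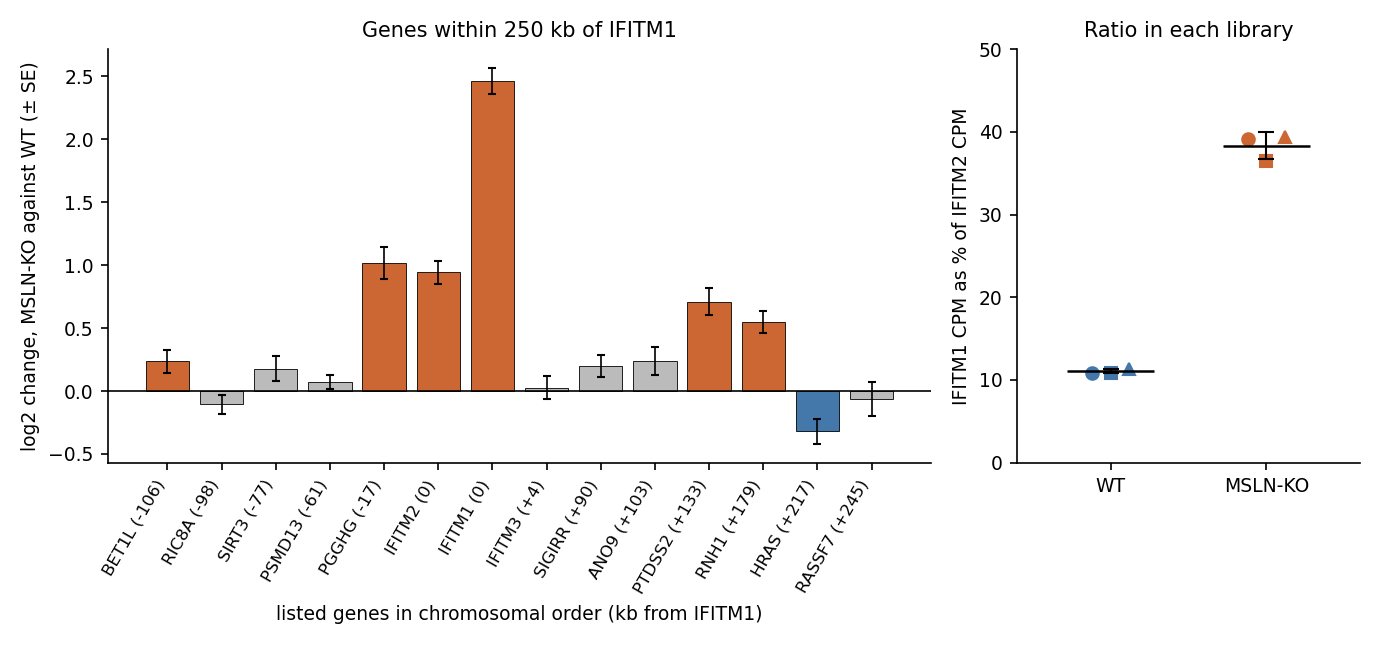
Left, log2 change of MSLN-KO against WT with its SE for each listed gene within 250 kb of IFITM1, in chromosomal order, with the distance from IFITM1 in kb in brackets (0 where gene models overlap); orange bars were called higher, blue lower and grey not called. Right, IFITM1 as a percentage of IFITM2 in each library, with group mean and SD (n = 3). IFITM1 stands above its neighbours at 2.46, and IFITM3, 4.4 kb away, stays at 0.03.

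The transcription factor genes IRF1, STAT2 and IRF9 differed in the same direction as IFITM1 and by less. IRF1 (ENSG00000125347.15, chromosome 5, 132481609 to 132490798) was at 33.2, 31.8 and 33.3 CPM in WT and at 51.2, 46.5 and 52.0 CPM in MSLN-KO. Its groups did not overlap and the means of 32.77 ± 0.865 and 49.9 ± 2.96 CPM have a ratio of 1.52 (log2 change 0.59, SE 0.07). STAT2 (ENSG00000170581.14, chromosome 12, 56341597 to 56360155) was at 97.5, 102.0 and 103.2 CPM in WT and at 132.6, 135.3 and 142.3 CPM in MSLN-KO. That is a ratio of 1.35 (log2 change 0.43, SE 0.05), and these groups did not overlap either. IRF9 (ENSG00000213928.9, chromosome 14, 24161053 to 24166565), the DNA-binding part of ISGF3, was at 10.97, 11.3 and 12.7 CPM in WT and at 16.0, 14.8 and 15.1 CPM in MSLN-KO. Its groups were also apart, with a ratio of 1.31 (log2 change 0.37, SE 0.09).

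SAMD9 and SAMD9L, adjacent genes of chromosome 7, differed in the opposite direction. SAMD9 (ENSG00000205413.8, 93099513 to 93118023) was at 184.9, 212.0 and 200.5 CPM in WT and at 158.6, 153.9 and 164.4 CPM in MSLN-KO, so that every MSLN-KO library lay below every WT library. The WT mean was 1.252 times the MSLN-KO mean (log2 change -0.32, SE 0.06). SAMD9L (ENSG00000177409.12, 93130055 to 93148369) was at 100.1, 111.3 and 107.6 CPM in WT and at 85.5, 71.4 and 85.1 CPM in MSLN-KO. It too was lower in every MSLN-KO library, with a ratio of 1.32 (log2 change -0.40, SE 0.07). SAMD9 stood at 187.1% ± 3 of SAMD9L in WT and at 198.1% ± 15.6 in MSLN-KO, and these ratios overlap between the groups. Only 2 other listed genes lay within 250 kb of the pair. Of these 0 were called higher and 1 lower, with a median log2 change of -0.52. The 563 listed genes of chromosome 7 had a median of 0.03, with 26.5% called higher and 22.4% lower. IFI16 (ENSG00000163565.20, chromosome 1, 158999968 to 159055155) did not differ beyond its spread. It was at 45.7, 51.7 and 49.3 CPM in WT and at 48.2, 50.5 and 48.5 CPM in MSLN-KO (log2 change 0.01, SE 0.06). Its neighbour and family member MNDA, a nuclear antigen gene of myeloid cells and no member of the set, fell from 257.3 ± 11.4 to 128.6 ± 8.25 CPM (limma adjusted p = 3.5e-08).

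Over the 9 genes, 5 passed the limma threshold upward, 2 downward and 2 not at all. Of all 11363 genes, 45.7% were called, 22.4% higher and 23.3% lower. Of the calls 49.0% were upward, and 56.4% when the columns were rescaled to equal totals, which moved the balance to the other side. The groups did not overlap for 7 of the 9 genes, and for 54.7% of all genes. Since the genes were picked with this contrast in view and IFITM1 entered the table through the group where it is high, nothing is read from these counts. The other 8 genes had log2 changes between -0.40 and 0.94, against 2.46 for IFITM1, and the median over all genes was 0.01.

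Per kilobase of exon (union of GENCODE release 29 exons), SAMD9 was the highest in WT at 29.05 ± 1.99 CPM per kb. It was followed by IFITM2 (20.9 ± 1.36), STAT2 (16.5 ± 0.488), SAMD9L (14.9 ± 0.8), IFI16 (9.24 ± 0.571), IFITM3 (6.388 ± 0.0279) and IRF1 (4.202 ± 0.111). IFITM1 (3.29 ± 0.248) and IRF9 (3.07 ± 0.245) came last in CPM per kb, and their libraries overlap. In MSLN-KO, IFITM2 led with 41.0 ± 5.67 CPM per kb. SAMD9 (23.2 ± 0.766), IFITM1 (22.4 ± 2.73) and STAT2 (22.4 ± 0.821) followed with overlapping libraries. SAMD9L (11.3 ± 1.12) and IFI16 (9.27 ± 0.24) came next, then IFITM3 (6.53 ± 0.51) and IRF1 (6.4 ± 0.379) with overlapping libraries, and IRF9 (4.03 ± 0.175) was last. IFITM1 thus went from the bottom of this order to a shared place near the top. These levels assume that reads fall evenly over the union of exons, which includes the bases shared by IFITM1 and IFITM2. The order between genes is therefore approximate.

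To place IFITM1 among all genes, genes with the most similar profile were sought, by Euclidean distance between log2(CPM + 1) values over the 6 libraries, each centred on its mean. Among the nearest were VENTX, a homeobox gene of myeloid cells (distance 0.23), F2R, the thrombin receptor gene (0.24), LIX1L (0.25) and the histone gene H3C3 (0.37). VENTX, F2R and LIX1L were at most at 0.548 CPM in each WT library and between 5.50 and 8.04 CPM in each MSLN-KO library, so that they too are listed through MSLN-KO alone. H3C3 belongs to a family of near-identical histone genes, so its own level is uncertain. None of these 4 is a gene of the interferon lists used here. IFITM2 lay at a distance of 1.86, with 195 genes nearer (IFITM1 itself counted). With only 2 groups, any gene with a large difference correlates: 318 genes had a Pearson's r of at least 0.98 to IFITM1 over the 6 libraries.

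The rest of the interferon pathway was examined through lists that leave out these 9 genes. Of 170 genes sought, 119 were listed, and of these 31 rose, 30 fell and 58 were not called, with a median log2 change of 0.00. Without MSLN-KO replicate 1 the number called higher was 20. With rescaling to column totals, 34 rose and 27 fell. The shares are close to the 22.4% and 23.3% of all genes. None of the 21 interferon genes sought was listed, nor was IFITM5 or IFITM10, so no level of an interferon is given. The monocytic markers named above moved between the same groups, and their part in these changes was not tested.

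Classical effector genes of type I interferon moved in both directions. Of 60 sought, 44 were listed, of which 9 rose, 14 fell and 21 were not called (median log2 change -0.03). HELZ2, a transcriptional coactivator, rose from 24.28 ± 2.35 to 38.94 ± 2.48 CPM (limma adjusted p = 2.7e-05). RSAD2, which encodes the antiviral enzyme viperin, rose 1.64-fold from 4.97 CPM, and TRIM22 rose 1.30-fold. TRIM22 lies inside the gene model of TRIM5 on the other strand, and RSAD2 overlaps CMPK2 likewise. Since the strand setting of the counting is not stated, reads of such partners cannot be told apart. CMPK2 rose 1.35-fold. Its call was lost without WT replicate 2 or 3 or MSLN-KO replicate 1 (adjusted p between 0.096 and 0.21, from 0.018 over all alternatives). PML, which builds nuclear bodies, fell 1.71-fold. It lies on chromosome 15, where 83.0% of 371 listed genes were called lower. TDRD7 fell from 356.9 ± 15.9 to 245.6 ± 8 CPM (limma adjusted p = 4.8e-06) and SLFN11, an inhibitor of viral translation, fell 1.43-fold. OAS2, a sensor of double-stranded RNA, fell 1.32-fold with overlapping groups. This last call was lost under 7 of 12 alternatives, among them the omission of any library except MSLN-KO replicate 1 (adjusted p between 0.052 and 0.17, from 0.00082 over all alternatives). The log2 changes of IFITM1 (2.46) and IFITM2 (0.94) lay above the range of this list, -0.75 to 0.66, and that of IFITM3 inside it. IFITM1 was chosen with its change known and is listed through MSLN-KO alone, whereas 0 genes of this list are listed through 1 group. Nothing is therefore read from its place outside the range.

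Of 25 genes known to respond to interferon gamma, 21 were listed, 7 rose, 4 fell and 10 were not called (median 0.05). WARS1, the cytosolic tryptophanyl-tRNA synthetase, rose from 173.4 ± 23.3 to 524.1 ± 17.3 CPM (limma adjusted p = 5.5e-09). The guanylate-binding protein genes split: GBP4 rose 2.74-fold and GBP5 1.95-fold, whereas GBP1 fell 1.398-fold. GBP3 fell 1.19-fold, a call lost under 7 of 12 alternatives, the omission of any library except WT replicate 1 among them (adjusted p between 0.054 and 0.16, from 0.033 over all alternatives). GBP4 was below 4.90 CPM in every WT library, like IFITM1. FCGR1A, the high-affinity IgG receptor gene, rose 1.74-fold, is also among the monocytic markers and has near-identical copies that can share its reads. TAPBP fell 1.16-fold. CXCL10, a chemokine gene with a classical ISRE, fell from 10.31 ± 2.37 to 6.314 ± 0.561 CPM (limma adjusted p = 0.0035).

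Receptors, kinases and STAT genes upstream of transcription changed in both directions. Of 14 listed, 3 rose, 4 fell and 7 were not called (median -0.10). Both subunits of the interferon gamma receptor fell, IFNGR1 from 195.9 ± 16.2 to 132.6 ± 9.26 CPM (limma adjusted p = 3.2e-05) and IFNGR2 1.36-fold. IFNLR1, the lambda receptor gene, fell 1.70-fold and IL10RB, its partner, 1.253-fold. JAK1, a kinase that serves all interferon receptors, rose 1.204-fold. STAT5B rose 1.11-fold, a call lost under 6 of 12 alternatives: the replicate block, no variance trend, and without WT replicate 2 or 3 or MSLN-KO replicate 1 or 2 (adjusted p between 0.052 and 0.15, from 0.016 over all alternatives). The type I receptor genes IFNAR1 and IFNAR2 were not called, with log2 changes of -0.17 and -0.12.

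Among the other IRF genes 3 of 6 rose and 0 fell (median 0.27). IRF4, a lymphoid and dendritic factor, rose from 4.951 ± 0.572 to 16.19 ± 2.34 CPM (limma adjusted p = 2.9e-07). IRF7, the master factor of type I interferon induction, rose 1.48-fold and IRF3, its constitutive partner, 1.32-fold. IRF2, IRF5 and IRF8 were not called (log2 changes -0.08, 0.15 and 0.08). IRF5 was called without MSLN-KO replicate 3 (adjusted p = 0.041) and with rescaling to column totals (0.034), in a range up to 0.24.

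Of 17 nucleic acid sensors and adaptors, 4 rose, 3 fell and 10 were not called (median 0.01). The kinase gene IRAK4 rose 1.43-fold and UNC93B1, a chaperone of endosomal Toll-like receptors, 1.30-fold. TLR8 fell from 237.7 ± 20.1 to 166.8 ± 9.34 CPM, TLR7 1.46-fold and the RNA sensor gene IFIH1 1.28-fold. TLR7 was below 4.90 CPM in every MSLN-KO library and is listed through WT, where it is high. CGAS, the cytosolic DNA sensor gene, rose 1.14-fold and DHX58 1.32-fold. The call of CGAS was lost without WT replicate 3 or any 1 MSLN-KO library (adjusted p between 0.056 and 0.10, from 0.014 over all alternatives). That of DHX58 was lost without MSLN-KO replicate 1 (adjusted p = 0.057, from 0.0069 over all alternatives).

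Inhibitors of JAK-STAT signalling were listed for 10 of 12 genes, with 4 rises, 2 falls and 4 not called (median 0.03). CISH, a target and inhibitor of STAT5, rose from 9.569 ± 0.69 to 17.91 ± 0.359 CPM (limma adjusted p = 4.1e-06) and the phosphatase gene PTPN6 rose 1.29-fold. PIAS1, on chromosome 15, fell 1.62-fold. SOCS3 rose 1.34-fold, PTPN2 rose 1.146-fold and PTPN1 fell 1.147-fold. SOCS3 was below 4.90 CPM in every WT library and is listed through MSLN-KO, where it is high. The call of SOCS3 was lost without WT replicate 1 or 2 or MSLN-KO replicate 1 (adjusted p between 0.051 and 0.091, from 0.0053). PTPN2 was lost without the variance trend, WT replicate 1 or 3, or MSLN-KO replicate 1 or 3 (adjusted p between 0.051 and 0.14, from 0.022). PTPN1 was lost without WT replicate 3 or MSLN-KO replicate 3 (0.073 and 0.053, from 0.017).

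Of 6 genes whose products bind or modify IFITM proteins, 1 rose, 2 fell and 3 were not called (median -0.02). NEDD4, the ubiquitin ligase of IFITM3, fell 1.69-fold (limma adjusted p = 2.3e-05), and it too lies on chromosome 15. ZDHHC20, a palmitoyltransferase that modifies IFITM3, fell 1.24-fold. ZMPSTE24, CD81 and SETD7 were not called, with log2 changes of -0.06, 0.02 and 0.09. VAPA rose 1.11-fold, a call lost under 7 of 12 alternatives, the omission of any library except WT replicate 2 among them (adjusted p between 0.054 and 0.13, from 0.015 over all alternatives).

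**Figure D3:**
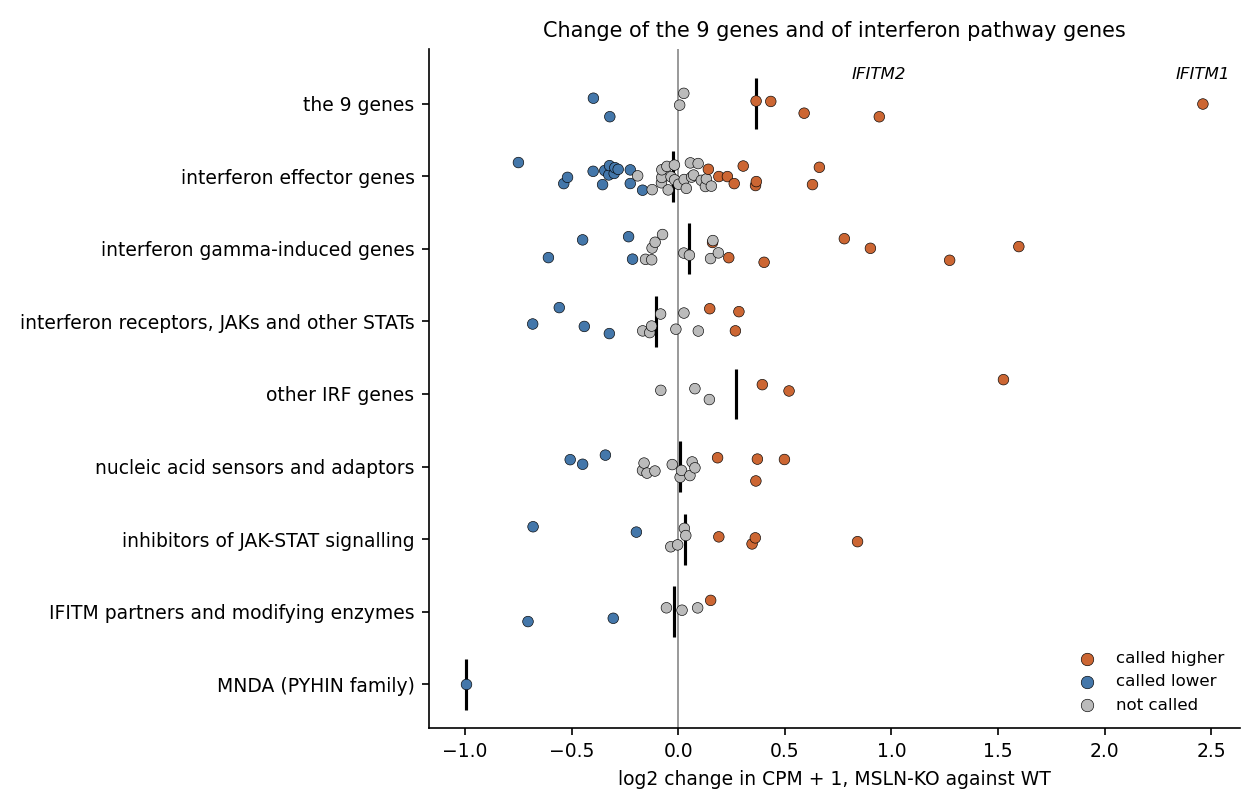
Log2 change of MSLN-KO against WT for each of the 9 genes (top row) and for each listed gene of the interferon pathway lists; orange points were called higher, blue lower and grey not called, the black tick is the median of the row, and points are spread vertically for sight only. IFITM1 at 2.46 lies to the right of every other point, the next being WARS1 at 1.598. IFITM1 was chosen with this change known, so nothing is read from its place.

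The ISRE core printed above is shared by many other promoters, and their genes were called at shares near those of all genes. Outside the 9 genes, 366 listed genes had an ISRE core in their RefSeq window, of which 74 (20.2%) rose and 92 (25.1%) fell, with a median log2 change of -0.01. Of all 8980 listed genes with a window, 22.1% rose and 22.9% fell (median 0.01). With 2 or more ISRE cores, as in IFITM1 and IFITM3, there were 32 other listed genes. Of these, 8 (25%) were higher and 10 (31.25%) lower, with a median of -0.11. Those with a GAS core numbered 741, with 22.5% higher, 23.9% lower and a median of 0.00. IFITM1, IFITM3 and SAMD9, the set's genes with an ISRE core, had log2 changes of 2.46, 0.03 and -0.32.

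**Figure D4:**
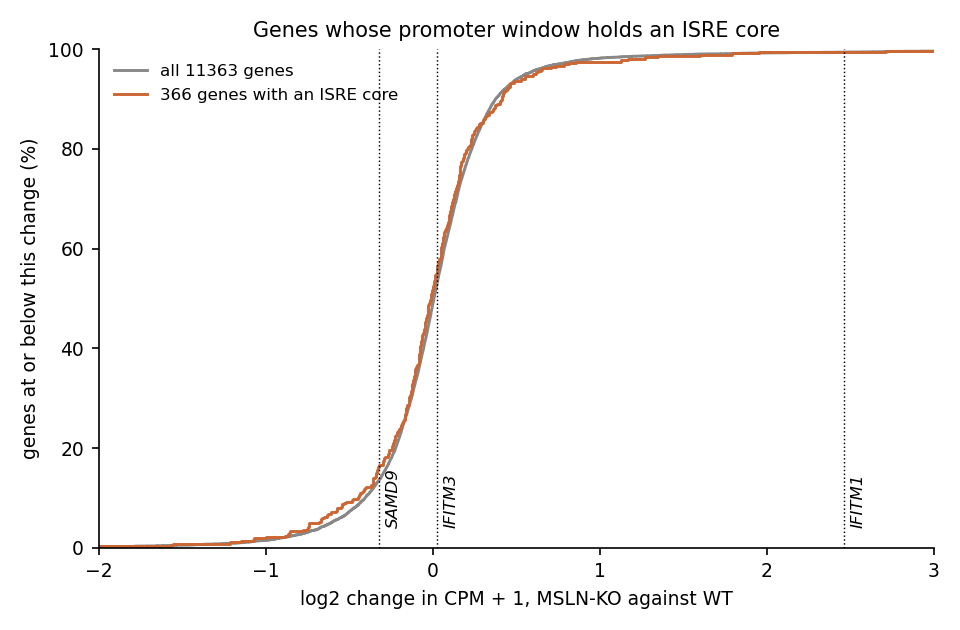
Cumulative share of genes (%) against log2 change of MSLN-KO against WT, for all 11363 genes (grey) and for the 366 with an ISRE core in the promoter window (orange). Dotted lines mark IFITM1, IFITM3 and SAMD9; the curves lie close to each other, with medians of 0.01 and -0.01. Changes beyond -2 and 3 are outside the plot.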

How the data were processed

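RNA of 6 libraries was sequenced after removal of ribosomal RNA with a stranded kit, per the labels' protocols. The tools named in the submitters' processing notes are STAR, featureCounts and edgeR, with the builds GRCh38 and hg38. Their versions, the annotation release and the strand setting were not given there. The deposited table holds CPM after TMM scaling, per its name and the column totals. Every value checked was a whole multiple, within 0.01, of what 1 read is worth in its library. Genes with the highest read numbers were left out of that check. Read numbers rest on that step and cover counting error only. Symbols matched 11354 of 11363 identifiers, and GENCODE release 29 (GRCh38, coordinates 1-based) held 11314.

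The test was that of limma (version 3.58.1, R 4.3.3), with a variance trend, over all genes at once on log2(CPM + 1). No covariate was used, tests were two-sided, and genes under a Benjamini-Hochberg adjusted p of 0.05 were called. Folds are ratios of mean CPM. No gene fell under the minimum mean of 0.5 CPM. In simulated libraries few genes were changed, all of them upward, with the same relative spread for every gene beyond counting error. There the fit recovered 74% of 50 genes changed 1.25-fold and 98% of 50 changed 1.5-fold. It made 12 false calls among 198 over 11363 genes. The real groups differed in many genes and in both directions, so these shares need not hold for them. The members, lists and tests were chosen with earlier results of these data known. Named genes are the members, up to 4 called list genes in each direction, every gene of lists under 10, all genes within 250 kb of IFITM1, those of the chromosome 9 region, and the 5 nearest profiles. Some genes under this rule are not reported here. Alternatives changed the pseudocount, filter, scaling, variance trend and replicate block, and left out each library.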

Additional observations from a re-analysis of the deposited data

How the results depend on the processing

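The difference between the log2 change of IFITM1 and the median of the other 8 genes kept its direction under all 12 alternatives run. It was 2.27 with a pseudocount of 1, 2.398 with 0.5 and 1.61 with 5, since the WT level of IFITM1 is near the pseudocount. With a pseudocount of 5 the excess of IFITM1 over IFITM2 was 0.90 and over IFITM3 1.75. The number of the 9 genes called was 7 under each alternative. The count of called genes ranged from 4092 to 5220 and that of called pathway genes from 48 to 61. No called value reversed. The log2 change took the other sign under at least 1 omitted library for 6 genes that were not called: IFITM3 (lowest -0.01), IFI16 (lowest -0.04), CD81 (lowest -0.02), ZMPSTE24 (highest 0.0030), MLLT3 (highest 0.05) and RASSF7 (highest 0.09). The calls of 16 of 71 named genes changed under at least 1 alternative, as given beside them. After centring each group on its mean, correlations of same-numbered libraries were 0.19, -0.17 and -0.09 for numbers 1 to 3. With 3 libraries per group, these values cannot settle whether the numbers pair the libraries. With the replicate block, 4946 genes and 56 pathway genes were called, IFITM1 exceeded the median of the others by 2.27, MSLN changed by -1.43, and 7 of the 9 genes were called. The planned edgeR and DESeq2 tests on recovered reads were not run, and read numbers served description only. SOCS3 has no value with a minimum mean of 5 CPM. About 90 reads per WT library limit the precision of the level of IFITM1 there.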
